A study of Drosophila melanogaster with 4 samples.

Results

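The muscle sarcomere genes described here are 8 genes of Drosophila melanogaster that encode parts of the contractile apparatus of muscle or a related light chain. They were taken by symbol from the platform's annotation, using spots listed under exactly 1 gene. All 8 were found, with 2 adjacent spots each, so they make up 8 of 2377 named genes and 16 of 16896 spots on the array. By role they comprised the actin Act88F, the troponin C genes TpnC41C and TpnC73F, troponin T (up), tropomyosin (Tm2), paramyosin (Prm), the Z-disc gene Zasp66 and the cytoplasmic myosin light chain Mlc-c.

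Flies were Oregon-R females of 10 to 20 days after emergence, kept in a cycle of 16 h light and 8 h dark at 60% relative humidity, and the labels of 3 of the 4 arrays add 23 °C. The treated group received 2 mL of an ethyl acetate extract of Piper nigrum (black pepper) seed at 0.9 mg/mL in 99% ethanol by Potter's tower, a spray tower for topical application. The control group received 2 mL of the 99% ethanol that both groups share. RNA of about 240 whole females per pool was taken 4 h later, and 80 µg was labelled with Cy3 or Cy5. Pools numbered 1 and 3 in the labels were each hybridised on 2 arrays with the dyes exchanged, and the 2 arrays of a pool were averaged, so n = 2 pools throughout. Below, each array is named by its pool and the dye that carried the extract RNA.

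A sarcomere is the repeating unit of striated muscle, in which thick filaments of myosin slide along thin filaments of actin. Calcium that binds troponin C acts through troponin T and tropomyosin on the thin filament and lets myosin attach. The Z-disc anchors the thin filaments at each end of the unit. Flies use particular isoforms in particular muscles. Act88F is the actin of the indirect flight muscles that power the wings, TpnC41C is the main troponin C of the jump muscle of the thorax, and TpnC73F, up, Tm2, Prm and Zasp66 are used more widely. Mlc-c is an essential light chain of non-muscle myosins and is not a sarcomere protein.

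All values are the authors' deposited log ratios of the 2 channels, taken as log2 and centred on the median of each array. The sources used here name no numerator, so a value above 0 is not stated to be higher or lower with extract. The labels place the extract in channel 2 on every array. If the ratios followed that order, values above 0 would be higher with extract. If they were deposited by dye instead, the values repeated on both arrays of a pool would be dye effects, and the extract's effect would lie in the values with the 2 Cy5 arrays multiplied by -1, called turned below. Turned values above 0 would then be higher with extract if Cy3 were the numerator, and lower with extract if Cy5 were. The sources state neither, so a turned sign also gives no direction of the extract's effect. Across the spots, Pearson correlation between the 2 arrays of a pool was 0.0632 in pool 3 and 0.0211 in pool 1, which settles neither reading. Both are therefore given. RNA came from whole flies, so a change in the number of muscle cells and in the RNA per cell cannot be told apart. Array medians before centring lay between -0.00218 and -0.000152, and the standard deviation of the spots between 0.344 and 0.518.

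Act88F stood out among the 8 genes, with a deposited ratio more than 2-fold above 0 in both pools. On the single arrays it lay at 1.36 (pool 1, Cy3), 0.89 (pool 1, Cy5), 1.14 (pool 3, Cy3) and 1.13 (pool 3, Cy5). All 4 values were far above 0, and the pool means of 1.13 and 1.13 were nearly the same. The mean was 1.13 ± 0.15 (SE of limma, n = 2 pools) on the log2 scale, a ratio of 2.19 with a 95% interval of 1.74 to 2.76. It missed the threshold of 0.05 when adjusted over all 13607 features (limma, adjusted p = 0.0506). Over 9 alternative settings the adjusted p of limma ran from 0.0064 to 0.968, where 1 of the 9, the median of the 2 spots, could not differ. It fell under the threshold in 3 of them, with arrays scaled to equal spread (0.0064), with 4 arrays and the replicate block (0.0102) and without the Cy5 array of pool 1 (0.0431), and it was 0.67 without the Cy3 array of pool 3. With the named genes fitted alone, where 0.421% passed in either direction, Act88F had a limma adjusted p of 0.00124. Among the 2377 named genes it ranked 3 by mean, and on the single arrays 7, 29, 2 and 7 in the order above. Its 2 spots also agreed: the first spot lay at 1.33, 0.76, 1.11 and 1.13, and the second at 1.39, 1.02, 1.17 and 1.13. The clones on the array were not given sequences in the sources used here, and fly actin genes are closely similar in their coding sequence, so these spots may also have bound transcripts of other actin genes.

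TpnC41C had the next highest mean, but its size rested on 1 array. It lay at 0.61 (pool 1, Cy3), 1.72 (pool 1, Cy5), 0.43 (pool 3, Cy3) and 0.19 (pool 3, Cy5), above 0 on all 4. The Cy5 array of pool 1 was more than 1 log2 unit above the other 3, and both of its spots were high there, at 1.59 and 1.86. Pool means were 1.17 in pool 1 and 0.31 in pool 3, and the mean was 0.74 ± 0.20 (limma, adjusted p = 0.471). Without the Cy5 array of pool 1 the mean was 0.46. Over the 4 arrays TpnC41C ranked between 4 and 520 among the named genes, whereas Act88F ranked between 2 and 29.

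TpnC73F, the troponin C of larval and other adult muscles, split by dye. It lay at -0.05 (pool 1, Cy3) and -0.01 (pool 3, Cy3), against 0.41 (pool 1, Cy5) and 0.33 (pool 3, Cy5). The pools agreed at 0.18 and 0.16, and the mean was 0.17 ± 0.15 (limma, adjusted p = 0.828). It was the 1 gene of the 8 with both Cy3 arrays below 0 and both Cy5 arrays above it. Such a split by dye held in either direction for 12.5% of named genes, so 1 of 8 is at about that share. On the Cy3 array of pool 1 its 2 spots lay on opposite sides of 0, at 0.25 and -0.35. The part of the dye in this result was not tested.

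The other thin filament genes gave means near 0 with different patterns. Troponin T (up) lay at 0.14 (pool 1, Cy3), -0.03 (pool 1, Cy5), 0.49 (pool 3, Cy3) and 0.12 (pool 3, Cy5), with a mean of 0.18 ± 0.15 (limma, adjusted p = 0.821). Its highest value was on the Cy3 array of pool 3. Tropomyosin (Tm2) lay at -0.12 (pool 1, Cy3), -0.64 (pool 1, Cy5), 0.67 (pool 3, Cy3) and 0.07 (pool 3, Cy5). Both arrays of pool 1 were below 0 and both of pool 3 above it, which held in either direction for 11.5% of named genes. The mean of -0.01 ± 0.19 (limma, adjusted p = 0.997) therefore came from pool means of -0.38 and 0.37. Its 95% interval ran from -0.44 to 0.43, and with arrays scaled to equal spread the mean was 0.04. Tm2 had the second-widest spread among the 8 after TpnC41C, with a range over the arrays of 1.32 that was wider than that of 97.1% of named genes.

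Paramyosin (Prm), which forms the core of the thick filament, gave the steadiest values. It lay at 0.36 (pool 1, Cy3), 0.33 (pool 1, Cy5), 0.34 (pool 3, Cy3) and 0.40 (pool 3, Cy5). The range of 0.0724 was among the narrowest on the array, with 0.21% of named genes below it, against a median range of 0.517. The mean was 0.35 ± 0.15 (limma, adjusted p = 0.651), a ratio of 1.28 with a 95% interval of 1.01 to 1.61. The closeness of the 4 means was not matched by the spots on the Cy5 array of pool 1, where they lay at 0.53 and 0.13.

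Zasp66, which binds at the Z-disc, lay at 0.22 (pool 1, Cy3), 0.62 (pool 1, Cy5), 0.29 (pool 3, Cy3) and 0.34 (pool 3, Cy5). All 4 arrays were above 0 and the pool means were 0.42 and 0.32. The mean was 0.37 ± 0.15 (limma, adjusted p = 0.642), a ratio of 1.29 with a 95% interval of 1.02 to 1.63. On the Cy3 array of pool 1 the first spot lay at -0.03 and the second at 0.46. Of all pairs among the 8 genes, Zasp66 and Prm had the closest values, at a Euclidean distance of 0.335 over the 4 arrays.

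Mlc-c, the non-muscle light chain, lay at 0.17 (pool 1, Cy3), 0.23 (pool 1, Cy5), -0.01 (pool 3, Cy3) and -0.07 (pool 3, Cy5). Pool 1 was above 0 and pool 3 below it, with a mean of 0.08 ± 0.15 (limma, adjusted p = 0.942). Tm2 also split by pool, with the signs exchanged, and such a split held in either direction for 11.5% of named genes. Its range of 0.295 was the second narrowest of the 8.

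**Figure D1:**
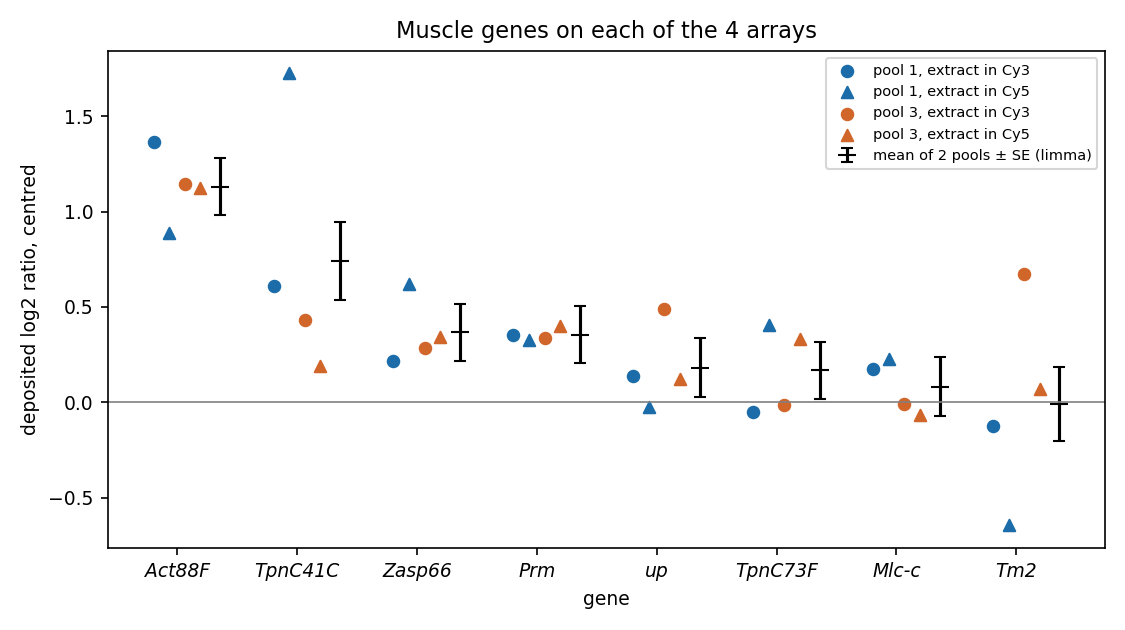
Deposited log2 ratio (vertical axis) of the 8 genes, ordered by mean, on the 4 arrays; blue marks pool 1, orange pool 3, circles the arrays with extract in Cy3 and triangles those with extract in Cy5, and the black bar is the mean of 2 pools ± SE. Act88F lies between 0.89 and 1.36 on all arrays, TpnC41C is set apart by 1 array at 1.72, and Tm2 runs from -0.64 to 0.67.

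Counted over the 8 genes, 0 passed the test over all features, where 6 of 13607 features (0.0441%) passed in either direction. Among named genes, 1 (0.0421%) passed above 0 in that fit. At an unadjusted limma p under 0.05, 4 of the 8 lay above 0, namely Act88F, TpnC41C, Zasp66 and Prm, against 2.73% of named genes. The same 4 were above 0 on all 4 arrays, as were 8.83% of named genes. Act88F was the 1 member at 2-fold or more above 0 in both pools and also the 1 member at 1.5-fold or more, against 0.126% and 0.337% of named genes. The pool means were above 0 in both pools for 6 of the 8, against 27.6% of named genes. Means lay above 0 for 7 of 8, against 51.5% of named genes. The median of the 8 means was 0.27, beside 0.01 over all named genes. It was 0.35 without Mlc-c. The 8 were not picked by these values here, but the list was written with earlier results of these data known, so these shares are a description.

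The 2 spots of each gene served as a check within an array. Over the 8 genes and 4 arrays the median absolute difference between the spots was 0.122, against 0.248 over all pairs of adjacent spots of 1 gene. On the Cy3 array of pool 1 the 8 genes had a median difference of 0.305, against 0.297 over all pairs, so the spots agreed less there than on the Cy3 array of pool 3, at 0.0404. For Act88F the largest difference was 0.25, and for TpnC41C 0.274, both on the Cy5 array of pool 1. These are smaller than the ratios themselves on that array.

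**Figure D2:**
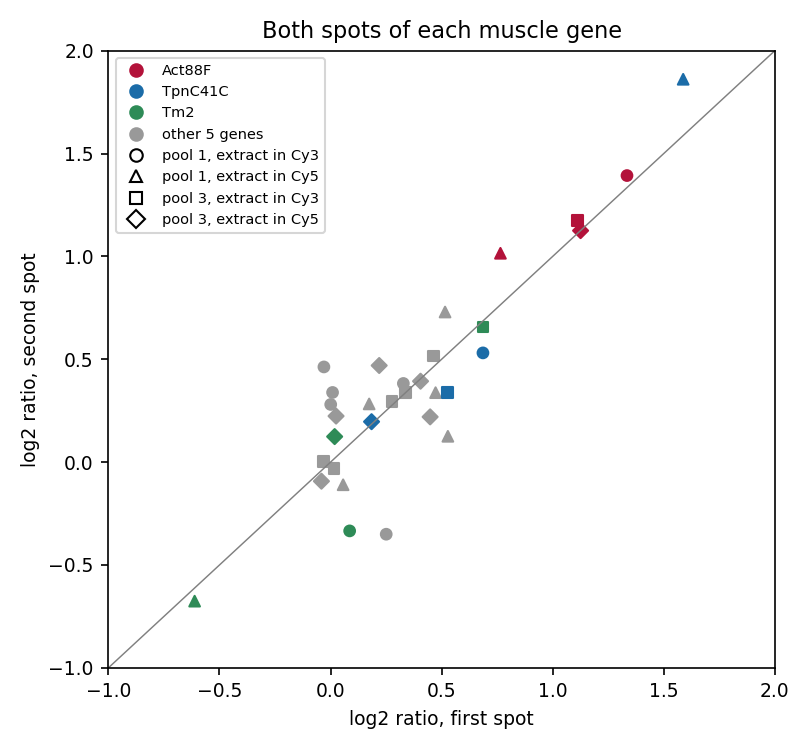
Log2 ratio of the second spot (vertical axis) against the first spot (horizontal axis) for the 8 genes on the 4 arrays, with array given by marker shape and the line marking equal values. Act88F (red) lies near the line at 0.76 to 1.39, the high TpnC41C values (blue) of 1.59 and 1.86 come from both spots of 1 array, Tm2 (green) runs from -0.68 to 0.69, and the other 5 genes (grey) are Zasp66, Prm, up, TpnC73F and Mlc-c.

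By class of gene, the flight muscle actin lay above the general muscle genes on every array. Act88F minus the mean of TpnC73F, Zasp66, Prm, up and Tm2 was 1.26 (pool 1, Cy3), 0.75 (pool 1, Cy5), 0.79 (pool 3, Cy3) and 0.87 (pool 3, Cy5). The pool means of this difference were 1.005 and 0.83, with a mean of 0.92 ± 0.12 (SD, n = 2). The general genes themselves averaged 0.11, 0.14, 0.35 and 0.25 in the same order, with a mean of 0.21 ± 0.13 (SD, n = 2).

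The jump muscle gene did not separate from the general genes in both pools. TpnC41C minus their mean was 0.50 (pool 1, Cy3), 1.59 (pool 1, Cy5), 0.08 (pool 3, Cy3) and -0.06 (pool 3, Cy5). The pool means were 1.04 and 0.01, so the mean of 0.53 was smaller than the SD of 0.73 between pools. It was 0.25 without the Cy5 array of pool 1 and 0.80 without the Cy3 array of that pool. Act88F minus TpnC41C was 0.76, -0.83, 0.71 and 0.93 in the same order, that is, Act88F was higher on 3 arrays and lower on the Cy5 array of pool 1. That difference had a mean of 0.39 ± 0.61 (SD, n = 2), and -0.04 in pool 1 against 0.82 in pool 3. Flight was Act88F alone and jump TpnC41C alone, so these are differences between genes in whole-fly RNA and not between muscles. They are given as descriptions and were not tested.

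In the order of means, Act88F at 1.13 was followed by TpnC41C at 0.74, Zasp66 at 0.37, Prm at 0.35, up at 0.18, TpnC73F at 0.17, Mlc-c at 0.08 and Tm2 at -0.01. The lowest array of Act88F, at 0.89, was above every array of the other genes apart from the 1.72 of TpnC41C. From TpnC41C down, each gene's arrays overlapped those of the next gene in the order.

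With the Cy5 arrays turned, Act88F had a mean of 0.12 ± 0.15 (limma, adjusted p = 0.968), with 0.24 in pool 1 and 0.01 in pool 3 and a 95% interval of -0.23 to 0.47. TpnC41C stood at -0.22 ± 0.19, TpnC73F at -0.20 ± 0.15 and Tm2 at 0.28 ± 0.15, the largest turned value of the 8 (limma, adjusted p = 0.962 for each of these 3). The turned sign was the same in both pools for 5 of 8 genes (Act88F, TpnC73F, Zasp66, up and Tm2), against 52.5% of named genes. Turned pool means were -0.23 and -0.17 for TpnC73F and 0.26 and 0.30 for Tm2. Act88F minus TpnC41C had a turned mean of 0.34, beside 0.39 with signs as deposited, but the pools did not repeat. As deposited the difference was -0.04 in pool 1 and 0.82 in pool 3. Turned, Act88F stood above TpnC41C in pool 1, at 0.24 against -0.56. In pool 3 it stood below, at 0.01 against 0.12. In this reading 0 of 8 genes passed, where 0 of 13607 features (0%) did, and 0 of 8 had an unadjusted limma p under 0.05, against 2.1% of named genes. The 1 gene of 8 with 1 sign on all 4 turned arrays was TpnC73F, below 0, against 12.5% of named genes with 1 sign. The median of the 8 was -0.00351, with 4 of 8 above 0, against 50.8% of named genes.

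**Figure D3:**
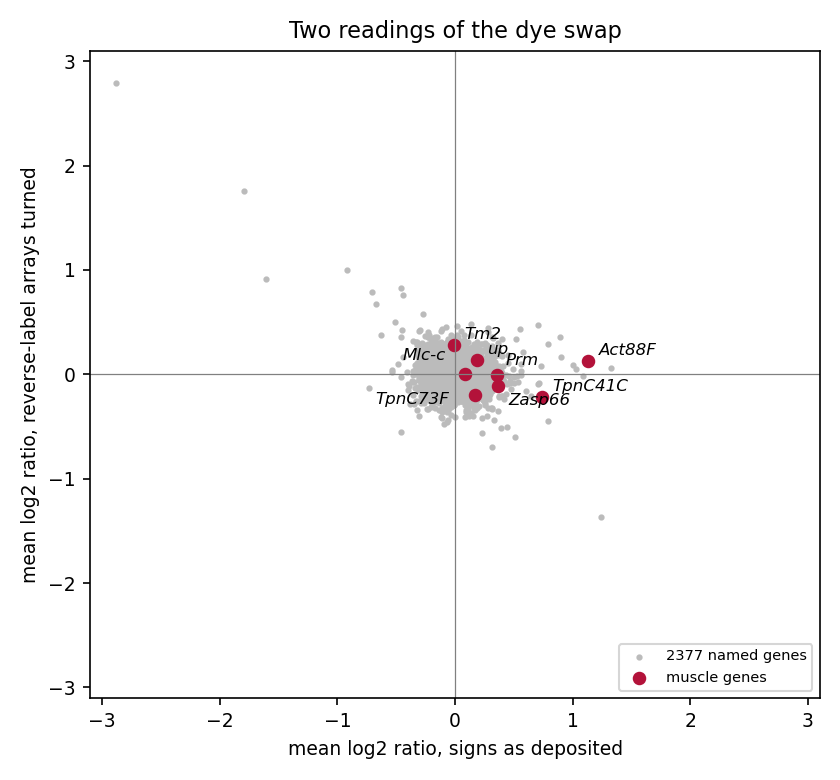
Mean log2 ratio with the Cy5 arrays turned (vertical axis) against the mean with signs as deposited (horizontal axis) for the 2377 named genes (grey) and the 8 muscle genes (red). Act88F lies far to the right at 1.13 and near 0 vertically at 0.12, and Tm2 lies at -0.01 and 0.28.

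Beyond the 8 genes, lists of muscle and cytoskeleton genes held 109 other symbols, of which 23 were measured. None of the 23 passed the limma test, and 2 lay above 0 and 0 below 0 at an unadjusted p under 0.05, against 2.73% and 1.09% of named genes. Of the 23, 18 had means above 0, against 51.5% of named genes, and their median was 0.12. With the Cy5 arrays turned, 12 lay above 0, against 50.8% of named genes, and the median was 0.04. The lists too were written with earlier results of these data known, so these shares are a description. They were also not complete, as measured genes with roles in muscle, such as Fhos and Msp300, were not on them. The 18 of 23 is therefore a share of these lists and not of all measured muscle genes. Above 0 on all 4 arrays were 5 of the 23, and 0 were below 0 on all 4, against 8.83% and 7.99% of named genes.

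The 2 genes with an unadjusted p under 0.05 were Strn-Mlck and RyR. Strn-Mlck, a kinase of the stretchin and myosin light chain kinase locus of muscle, lay at 0.09 (pool 1, Cy3), 0.47 (pool 1, Cy5), 0.60 (pool 3, Cy3) and 0.60 (pool 3, Cy5). Its mean was 0.44 ± 0.16 (limma, adjusted p = 0.577). RyR, the ryanodine receptor that releases calcium from the sarcoplasmic reticulum, lay at 0.78 (pool 1, Cy3), 0.40 (pool 1, Cy5), 0.20 (pool 3, Cy3) and 0.26 (pool 3, Cy5). Its mean was 0.41 ± 0.16 (limma, adjusted p = 0.62). Both were above 0 on every array, and turned they stood at -0.10 and 0.08.

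By list, 0 genes passed in either direction in any of them. The counts above 0 below stand beside 51.5% of named genes. The thin filament list held 5 measured genes of 16, all among the 8, with a median of 0.18, and the thick filament list 2 of 9, Prm and Strn-Mlck. Of 14 Z-disc genes 5 were measured and all 5 had means above 0, from 0.03 for the actin capping subunit cpa to 0.37 for Zasp66, with kon, a transmembrane protein of muscle attachment that this list also held, at 0.21. In the muscle attachment list 6 of 17 were measured, 4 above 0, with paxillin (Pax) at 0.18 and Tsp, a thrombospondin of tendon junctions, at 0.16. Of 15 genes for calcium and excitation 6 were measured and 5 lay above 0, with the plasma membrane calcium pump PMCA at 0.19. Stim, the calcium sensor of the endoplasmic reticulum, was the 1 below, at -0.12. Of 20 muscle regulators 4 were measured, 2 above 0, with the splicing factor mbl at 0.27 and above 0 on all 4 arrays, and ct at -0.03. In the cytoskeletal list 3 of 18 were measured, with the phosphatase subunits flw at 0.20 and Mbs at 0.19 beside Mlc-c. None of 8 genes of muscle energy supply was measured under a gene name here.

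Markers of other tissues lay on both sides of 0. The neuronal genes nSyb and cac stood at 0.25 ± 0.15 and 0.05 ± 0.16, 2 of 11 on the list. The fat body genes apolpp, Fbp2 and Mtp, 3 of 11, stood at -0.54, -0.18 and -0.13. All 3 were below 0 on all 4 arrays, as were 7.99% of named genes. The deposited values are ratios, so no summed level of these markers is given. The ovary genes exu, yl and pum, 3 of 11, stood at 0.22, -0.01 and -0.28. None of these 8 passed the test, and apolpp was the 1 at an unadjusted limma p under 0.05. Turned, the fat body list had a median of 0.02 with 2 of 3 above 0. The part of these tissues in the muscle values was not tested.

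**Figure D4:**
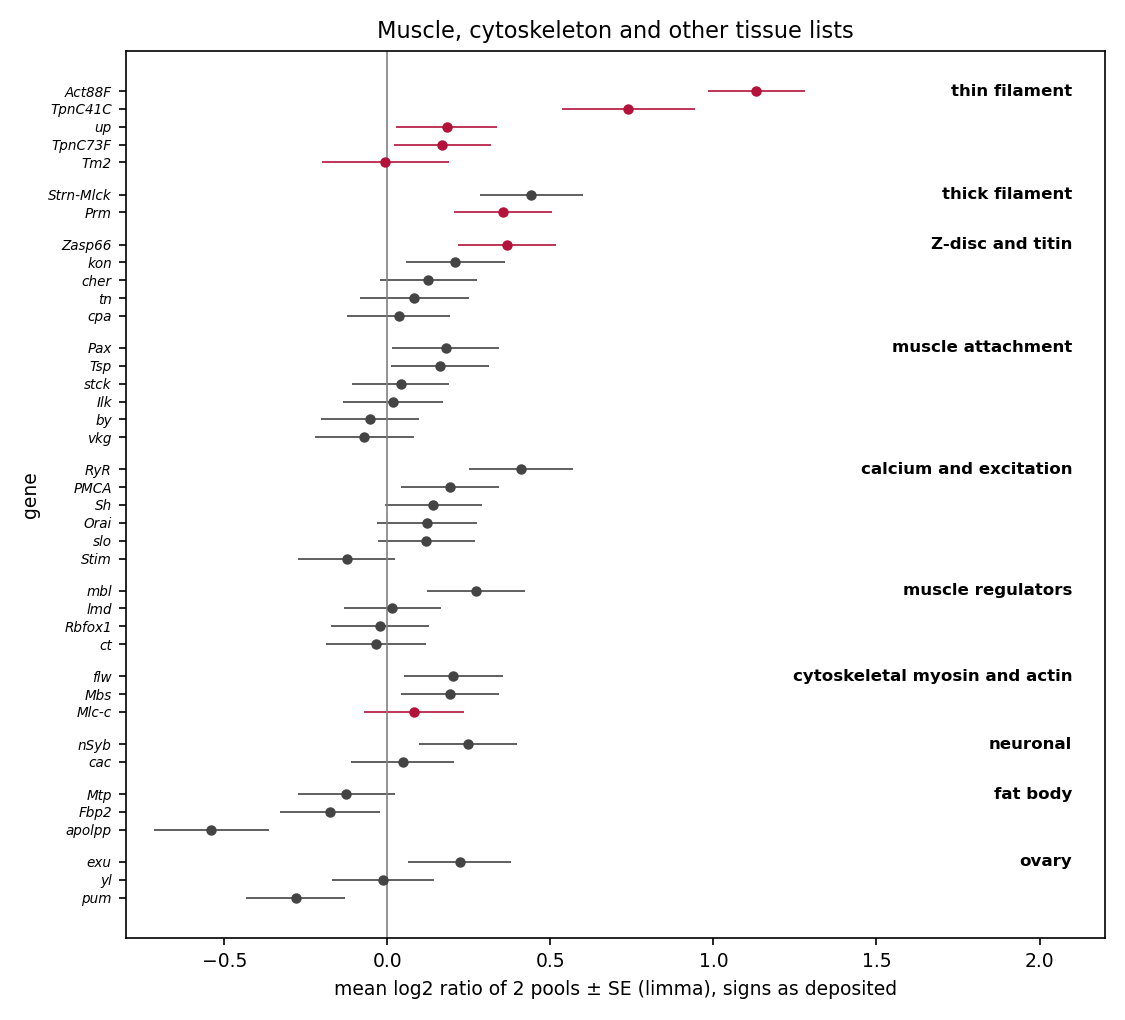
Mean log2 ratio of 2 pools ± SE (horizontal axis, signs as deposited) for every measured gene of the muscle, cytoskeleton, neuronal, fat body and ovary lists, with the 8 genes in red. Act88F at 1.13 and TpnC41C at 0.74 lie apart from the rest, where the next are Strn-Mlck at 0.44 and RyR at 0.41, and the 3 fat body genes lie below 0.

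By Euclidean distance over the 4 arrays among 2376 other named genes, the gene nearest to Act88F was CG11893, of the ecdysteroid kinase-like family, at 0.415. It lay at 1.02 (pool 1, Cy3), 1.12 (pool 1, Cy5), 1.13 (pool 3, Cy3) and 1.09 (pool 3, Cy5). CG31904 followed at a distance of 0.655, CG5966 at 0.682, Vajk3 at 0.692 and aay, a phosphoserine phosphatase, at 0.783, where the median gene was at 2.32. None of these 5 is a muscle gene of the lists. They were chosen by closeness to Act88F over the same arrays, so their values above 0 on all 4 follow from the choice. Nearest to TpnC41C was Jhbp5 at 0.571, with 0.69, 1.21, 0.57 and 0.39 in the same order of arrays, so it too was highest on the Cy5 array of pool 1. Obp44a, NimB1, CG9297 and muc followed at 0.7001, 0.804, 0.889 and 0.9, against a median of 1.92. The Cy5 array of pool 1 was also the highest for each of these 4. These genes were chosen by closeness to TpnC41C over the same arrays. The shared high array therefore follows from the choice and is no separate result.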

How the data were processed

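The values are log ratios that the authors deposited, made from 2 dye channels with 1 value per spot and array, and they were taken as log2. Of the log base, numerator, scanner, background correction and normalization, none is given in the sources used here. Symbols came from the platform's annotation (5666 spots with 1 gene, 152 with several, 11078 with none), and the gene numbers of the 8 genes matched the same symbols in NCBI RefSeq's table of Release 6. Arrays were centred on their medians, spots of 1 gene averaged, other spots kept as single features (13607 in all), and the 2 arrays of a pool averaged, since they hold the same 2 extracts. Each mean was set against 0 by the moderated two-sided test of limma (version 3.58.1, R 4.3.3), with Benjamini-Hochberg adjustment over all features at 0.05. The fit had 1 residual and 8.19 prior degrees of freedom. With 4 arrays the precision is limited by their number. Insects of 1 pool were treated at the same time, per the labels, so a pool counts as 1 replicate. With 1 residual against 8.19 prior degrees of freedom, each SE and p-value rests mostly on a variance shared over all features. They therefore do not measure how far the 2 pools of a single gene differ. For Act88F the SE was 0.15, whereas the SD between its 2 pool means was 0.0052.

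Named genes were the 8 members, listed muscle and cytoskeleton genes at an unadjusted p under 0.05 or otherwise the 2 largest absolute means of a list, and the 5 genes nearest to Act88F and to TpnC41C. PMCA, Stim, kon, cpa and the neighbours in gene order were named after their values were seen. Counts at 2-fold and 1.5-fold used both pools. Members and lists were chosen with earlier results of these data known. Alternatives were turned signs, equal spread, no centring, a replicate block, each array or pool left out, named genes alone, single spots, the median of spots, and the list without Mlc-c. Marker lists of neurons, fat body and ovary were described by counts. No sequence of the spotted clones was used here.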

Additional observations from a re-analysis of the deposited data

Results flagged for a closer look

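In 4 of 43 genes and differences, 1 array lay far from the other 3 by Dixon's 95% critical value for 4 values, where chance gives about 1 in 20, or 2.15. Act88F minus TpnC41C stood at -0.83 on the Cy5 array of pool 1, against 0.71 to 0.93 on the others. The adhesion kinase gene Ilk stood at 0.35 on the Cy3 array of pool 1, against -0.11 to -0.06. The collagen gene vkg stood at -0.30 on the Cy3 array of pool 3, against -0.02 to 0.03. The ovary gene pum stood at -0.52 on the Cy5 array of pool 1, against -0.22 to -0.19. None of the 8 genes was itself so far apart on an array by this measure.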

How the results depend on the processing

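Of 64 member ratios under alternatives with a test, 53 kept their sign and side of the threshold, 3 (all Act88F) moved past it and 8 changed sign, 5 of them with the Cy5 arrays turned. As 0 members passed in the main fit, none could fall back from the threshold, so the 53 do not measure how stable the sizes were. Act88F turned, at 0.12 against 1.13 as deposited, is among them. Of 16 ratios of 1 pool alone, which have no test, 2 changed sign. Turned, TpnC41C stood at -0.22, TpnC73F at -0.20, Zasp66 at -0.12, Prm at -0.0082 and Tm2 at 0.28. The turned median of the 8 was -0.00351, flight minus general genes 0.11 and jump minus general genes -0.24, with 0 features past the test. Flight minus jump stood at 0.34 turned and 0.39 as deposited. These 2 means came from opposite pools, pool 1 when turned and pool 3 as deposited. Tm2 stood at 0.043 with equal spread, between -0.16 and 0.14 without 1 array, and between -0.38 and 0.37 with 1 pool alone. Mlc-c lay between -0.037 and 0.20 with 1 pool alone. Features past the test numbered 42 with equal spread, 12 with the 4 arrays and the replicate block (correlation -0.244), 10 with named genes alone, 19 with every spot as its own feature, and 0 to 11 without 1 array. In each of these settings 1 member, Act88F, passed, except without an array, where it was 0 to 1. The negative correlation made each SE of the block fit smaller than 4 separate replicates would give. With single spots both Act88F spots passed (limma, adjusted p = 0.0328 and 0.0213). Without 1 array the median of the 8 lay between 0.24 and 0.32, and flight minus general between 0.79 and 1.04. Flight minus jump lay between -0.01 and 0.79 and TpnC41C between 0.46 and 1.02, with jump minus general between 0.25 and 0.80, TpnC73F between 0.06 and 0.28 and up between 0.09 and 0.27. Without Mlc-c the median was 0.35. Without centring 5 features and 0 members passed, and no member changed sign. The median of 2 spots is their mean, so that alternative could not differ for these genes. The cause of these shifts was not tested.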

Other observations

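Genes near the 8 in gene order, 3 protein-coding genes on each side, numbered 48, of which 11 were measured under a name. They lay between -0.21 (Papst2) and 0.32 (rogdi), both near TpnC73F, with a median of -0.01, 5 above 0 and 0 at an unadjusted limma p under 0.05. Near Act88F, Atx2 stood at 0.21 and AdamTS-A at 0.28. Zasp66 and Prm, whose values were the closest of any pair, lie 14 protein-coding genes apart on 1 chromosome arm. GAPsec near Zasp66 and Fhos near Prm stood at -0.06 and -0.02.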
